A study of Mus musculus with 6 samples.

Results

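Cullins are the scaffolds of the cullin-RING ubiquitin ligases, and the genes described here are the 6 canonical cullins of the mouse (Cul1, Cul2, Cul3, Cul4a, Cul4b and Cul5), both RING-box subunits (Rbx1 and Rnf7) and both elongin adaptors (Elob and Eloc). These 10 genes were chosen by name, as subunits of these ligases, and all 10 were among the 12925 genes that passed the filter on low counts. The question was whether other cullins, or the subunits that work beside Cul5, shift when Cul5 is lost from T cells.

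A cullin binds a RING-box protein at one end, which recruits the ubiquitin-loaded E2 enzyme, and an adaptor with a substrate receptor at the other. Cul1 to Cul4b use Rbx1, whereas Cul5 pairs with Rnf7 (also called Rbx2). Elongin B and elongin C link Cul2 to receptors such as Vhl, and link Cul5 to SOCS-box receptors such as Cish and Socs1, which limit cytokine signaling in T cells. All cullins are switched on when Nedd8 is attached to them.

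RNA was sequenced from naive CD4+ T cells of spleens and lymph nodes of C57BL/6 mice, activated with anti-CD3 and anti-CD28 and polarized toward Th9 for 48 h with IL-4, TGF-β and anti-IFN-γ. The 3 Cul5 cKO cultures came from young adult Cul5fl/fl mice carrying CD4-Cre, and the 3 WT cultures from Cul5fl/fl littermates without it. CD4-Cre is driven by Cd4 regulatory sequence and acts from the thymus on in all T cells, so the deletion is set before the cells were put in culture. The labels number the replicates but do not say from how many animals they came. The paper places all of them in a single experiment, so p-values measure the spread between these cultures and none between experiments.

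Depth was 23111689 to 23454552 estimated counts in 5 libraries and 3944803 in WT replicate 3, which left 165 (Rnf7) to 771 (Cul3) counts per gene there. The defining marker Cd4 was at 440 to 470 CPM (counts scaled to a library of 1000000, with TMM-adjusted library sizes) in all 6 cultures. The summed level of the 6 CD4 T cell markers was 1392 to 1439 CPM in the WT cultures and 1255 to 1265 CPM in Cul5 cKO. Of these, Cd28 was at 88.2 to 125 CPM in WT and 45.0 to 56.3 CPM in Cul5 cKO. Cd3e, Cd3d, Cd3g and Lck were also lower in every Cul5 cKO culture than in every WT culture. Groups did not overlap in CPM for 27.5% of all genes. The 3 B cell markers summed to 5.23 to 6.07 CPM in the WT cultures and 1.56 to 26.5 CPM in Cul5 cKO, the highest in Cul5 cKO replicate 3. The 2 CD8 T cell markers summed to 5.76 to 6.53 CPM in WT and 4.30 to 11.6 CPM in Cul5 cKO, again highest in replicate 3. For the 4 myeloid markers the sums were 1.92 to 6.45 and 0.999 to 7.98 CPM, the highest in Cul5 cKO replicate 2. The part of such cells in the results was not tested.

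Cul5 was the gene targeted, and it was the single member called. Its level was 64.4, 69.3 and 65.0 CPM in replicates 1, 2 and 3 of WT. In Cul5 cKO replicates 1, 2 and 3 it was 10.6, 14.2 and 13.1 CPM. Every Cul5 cKO culture was below every WT culture, and the groups were far apart. The log2 fold change, Cul5 cKO over WT, was -2.39 ± 0.11 (SE, n = 3 per group; edgeR quasi-likelihood test, adjusted p = 9.92e-04). This left 19.1% of the WT level, with a 95% interval of 15.9% to 22.8%. Of the 10 members 1 was called, against 1.03% of all genes tested. In these bulk samples fewer cells with intact Cul5, less Cul5 RNA per cell and RNA that lacks the deleted exons cannot be told apart. The paper reported deletion of Cul5 by immunoblot of splenic CD4+ T cells, and protein was not measured here.

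The floxed segment is described as exons 9 to 11, and its sequence shows what the counts can and cannot see. Cul5 (ENSMUSG00000032030) lies on the minus strand of chromosome 9, at chr9:53614582-53670014 in GRCm38. On Cul5-201, which has 19 exons, exons 9, 10 and 11 are coding and hold 131, 108 and 65 bases, at chr9:53633985-53634115, chr9:53633732-53633839 and chr9:53632273-53632337. The sequences are from GENCODE vM21, shown 5′ to 3′ on the gene's strand. The last line joins the final 24 bases of exon 8 to the first 11 of exon 12, with the first stop codon in frame in capitals.
Cul5 exon 9: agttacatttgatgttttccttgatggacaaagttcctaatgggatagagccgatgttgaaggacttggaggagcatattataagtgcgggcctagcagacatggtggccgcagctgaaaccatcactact
Cul5 exon 10: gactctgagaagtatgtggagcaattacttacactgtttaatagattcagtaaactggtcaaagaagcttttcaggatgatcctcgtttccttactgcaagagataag
Cul5 exon 11: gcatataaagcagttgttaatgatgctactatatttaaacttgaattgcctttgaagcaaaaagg
Cul5 exon 8 joined to exon 12: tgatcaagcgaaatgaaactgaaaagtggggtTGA

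Together the 3 exons hold 304 bases, which is not a multiple of 3. Reading across the join in frame reached a stop after 369 codons, against 855 codons in the full reading frame. The exon count depends on the transcript: Cul5-209 lacks an exon of 81 bases upstream, and its own exons 9 to 11 would hold 306 bases, a multiple of 3, as would be the 333 bases of exons 9 to 11 of Cul5-202. The segment was meant to shift the reading frame, which among these transcripts holds for the numbering of Cul5-201. On Cul5-201 the 3 exons make up 8.48% of the transcript, so most of the sequence counted as Cul5 lies outside the segment and would still be counted in a transcript that lacks it.

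The counts left in Cul5 cKO were divided between the Cul5 transcripts in other shares than in WT. Reads were assigned to 9 annotated Cul5 transcripts, and 3 coding ones held 90.9% to 98.5% of the gene's counts. Cul5-201 (3585 bases) went from 27.6, 31.2 and 31.5 CPM in the WT cultures to 2.0, 3.53 and 3.14 CPM in Cul5 cKO, or 9.60% of the WT mean. Cul5-209 (5942 bases), whose last exon runs on for another 2442 bases, went from 29.0, 27.3 and 28.9 CPM to 6.46, 7.98 and 6.66 CPM, or 24.8%. Both transcripts were lower in every Cul5 cKO culture, the shorter one by more. Cul5-202 (5945 bases) had 6.10, 8.62 and 3.72 CPM in the WT cultures and 1.35, 1.60 and 2.09 CPM in Cul5 cKO. As a share of the gene's counts, Cul5-201 went from 45.4% ± 2.8 in WT to 22.6% ± 3.3 in Cul5 cKO (SD, n = 3 per group). The share of Cul5-209 went from 43.0% ± 3.1 to 56.0% ± 4.9. Neither share overlapped between the genotypes, as for 12% of transcripts of all genes tested (those with at least 5% of their gene's counts in either genotype), and the exact two-sided permutation test gave p = 0.1 for each, the smallest it can give for 3 samples against 3. These transcripts share most exons, so the split is an estimate of the assignment program from short reads.

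**Figure D1:**
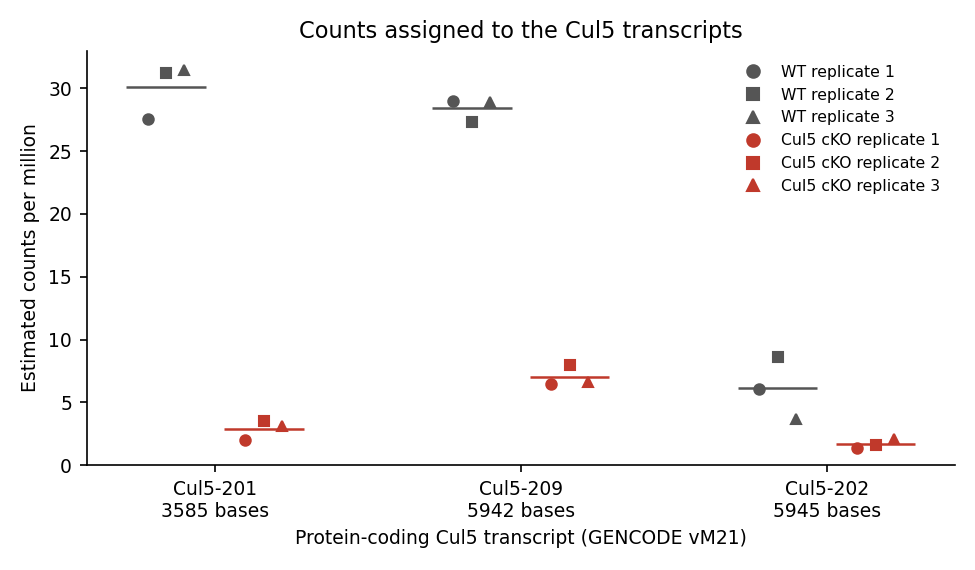
Estimated counts in CPM (y axis, from 0) assigned to the 3 protein-coding Cul5 transcripts (x axis) in each culture. Points are cultures and lines are group means, and Cul5-201 went from a mean of 30.1 CPM in the WT cultures to 2.89 CPM in Cul5 cKO, against 28.4 to 7.04 CPM for Cul5-209.

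The genes are spread over the genome, so no other member lies in the neighbourhood of the deleted segment. All are annotated as protein-coding, and in GRCm38 Cul1 is at chr6:47453398-47526139, Cul3 at chr1:80264923-80340480, Cul4a at chr8:13105621-13147940, Cul4b at chrX:38533274-38576196 and Cul2 on chromosome 18. Rbx1 is at chr15:81466296-81476369, Elob at chr17:23824738-23829136 and Eloc at chr1:16641725-16657042. Rnf7, at chr9:96470937-96478675, is the one other member on the chromosome of Cul5.

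None of the other 5 cullins was called, and in each of them the WT and Cul5 cKO cultures overlapped in CPM. Cul1, the scaffold of the SCF ligases with their F-box receptors, was at 133, 131 and 137 CPM in the WT cultures and at 130, 135 and 140 CPM in Cul5 cKO. The groups overlapped, with a log2 fold change of 0.02 ± 0.06 and a level of 101% of WT (95% interval 91.8% to 111%). On the log2 scale Cul1 had the narrowest interval of the 10 genes.

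Cul2 is the cullin most like Cul5 in its partners, since it too is reached through the elongins. It was at 75.3, 68.7 and 70.9 CPM in the WT cultures and at 77.9, 73.8 and 78.8 CPM in Cul5 cKO. One WT culture lay inside the Cul5 cKO range. The log2 fold change was 0.10 ± 0.07, or 107% of WT (95% interval 96.2% to 119%; edgeR adjusted p = 0.428). A level of Cul2 above 119% of WT was thus outside the interval.

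Cul3, the scaffold that takes BTB-domain receptors, was the most abundant cullin. It was at 186, 198 and 195 CPM in the WT cultures and 171, 181 and 192 CPM in Cul5 cKO. The groups overlapped, and the log2 fold change was -0.09 ± 0.07, or 93.9% of WT (95% interval 84.3% to 105%).

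Cul4a and Cul4b, close paralogs that both work through Ddb1, had fold changes of opposite sign. Cul4a was at 69.9, 57.1 and 55.9 CPM in the WT cultures and at 77.9, 62.4 and 66.1 CPM in Cul5 cKO. Replicate 1 was the highest culture in both genotypes, and the log2 fold change of 0.17 ± 0.12 had the widest interval among the cullins other than Cul5 (92.6% to 136% of WT). It ran from 0.07 without Cul5 cKO replicate 1 to 0.28 without WT replicate 1, and on the TPM scale (limma on log2(TPM + 1)) it was 0.0090. Cul4b was at 82.1, 90.6 and 85.3 CPM in the WT cultures and at 80.7, 77.1 and 85.2 CPM in Cul5 cKO. Its log2 fold change was -0.09 ± 0.07, or 94.1% of WT (95% interval 83.9% to 106%), and its groups overlapped as well.

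Of the RING-box genes, Rnf7, the partner of Cul5, was the one without overlap between the genotypes in CPM. It was at 46.3, 44.6 and 41.8 CPM in the WT cultures and at 49.1, 46.8 and 53.9 CPM in Cul5 cKO. All 3 Cul5 cKO cultures lay above all 3 WT cultures, although the gap between the nearest cultures was small. The log2 fold change was 0.17 ± 0.08, or 112% of WT (95% interval 98.7% to 128%), and it did not pass the test (edgeR adjusted p = 0.281). Its direction is uncertain, since the interval includes no change. A stretch of Rnf7 is shared with Emb. As the log2 ratio of mean CPM, Rnf7 alone gave 0.17, as did Rnf7 with the transcripts that carry the stretch. Adding all counts of Emb, nearly all from transcripts without the stretch, gave -0.15. Groups without overlap in CPM were common here, at 27.5% of all genes, and among the 10 members they were 2, Cul5 and Rnf7. On the TPM scale Rnf7 did overlap, at 61.0 to 69.9 in WT and 69.1 to 74.8 in Cul5 cKO. Rbx1, which serves the other cullins, was at 57.0, 50.5 and 49.9 CPM in the WT cultures and at 56.3, 52.4 and 54.9 CPM in Cul5 cKO. The genotypes overlapped, with a log2 fold change of 0.05 ± 0.08 and a 95% interval of 91.5% to 117% of WT.

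Both elongins had positive fold changes that did not pass the test. Elob, the ubiquitin-like elongin B, was at 127, 107 and 111 CPM in the WT cultures and at 132, 120 and 117 CPM in Cul5 cKO. Eloc, which contacts both the cullin and the receptor, was at 70.0, 62.3 and 52.9 CPM in the WT cultures and at 67.3, 70.2 and 76.7 CPM in Cul5 cKO. WT replicate 3, the shallow library, was the lowest culture for Eloc, and the groups overlapped for both genes. The log2 fold changes were 0.09 ± 0.09 for Elob and 0.20 ± 0.11 for Eloc, or 107% and 115% of WT. For Eloc the 95% interval was 96.2% to 136% of WT (edgeR adjusted p = 0.342). Without WT replicate 3 its log2 fold change was 0.11.

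Across the 9 members other than Cul5, 7 fold changes were positive and 2 negative, with a median log2 fold change of 0.09 beside -0.01 over all genes tested. None had an unadjusted p under 0.05, where 21.3% of all genes did. Their 95% intervals together ran from 83.9% to 136% of WT; levels outside these bounds were outside the interval of every one of the 9 genes.

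**Figure D2:**
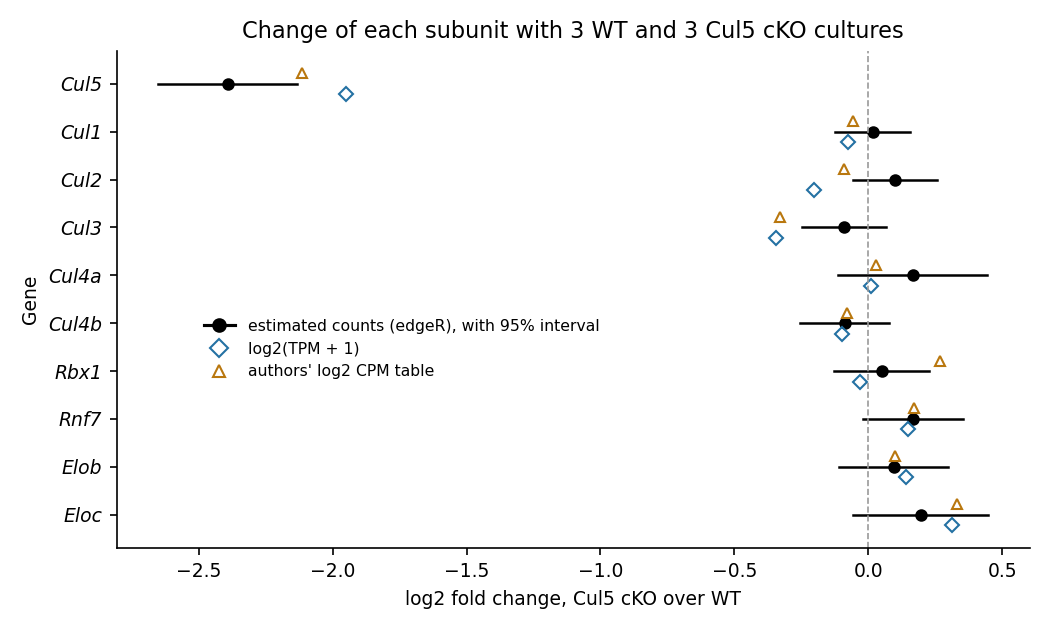
Log2 fold change (x axis, Cul5 cKO over WT) of each subunit gene (y axis). Filled circles with bars are the edgeR estimate and its 95% interval, diamonds are the differences in log2(TPM + 1) and triangles those in the authors' log2 CPM table. Cul5 lies near -2.39 and the other 9 intervals include 0.

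Per length, the order of the transcripts was led by the small adaptors and ended with Cul5. Levels between genes are compared here in TPM, the share of a transcript after division by its length. In WT, Elob led with 503 ± 76 TPM (SD, n = 3), above 98.1% of the genes tested. Eloc followed at 174 ± 43 TPM and Cul3 at 138 ± 34 TPM, and the ranges of these 2 overlapped. Then came Rbx1 at 112 ± 3.8, Cul1 at 84.6 ± 11 and Rnf7 at 64.5 ± 4.7 TPM, each separate from its neighbours. Cul2 at 45.5 ± 5.4 and Cul4b at 37.7 ± 3.5 TPM overlapped, and Cul4a was below them at 29.3 ± 1.5 TPM. Cul5 was the lowest member in WT, at 22.9 ± 2.0 TPM, with no overlap with Cul4a, and it was above 55.6% of the genes tested.

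In Cul5 cKO the order was the same except that Rbx1 and Cul3, which overlapped there, changed places. The place of Cul3 depended on 2 short transcripts described below. Without them Cul3 was at 90.4 to 106 TPM in WT and 86.6 to 96.0 TPM in Cul5 cKO. Rbx1 was above this in both, at 108 to 115 and 105 to 113 TPM. Cul5 was at 5.19 ± 0.35 TPM. Rnf7 was more abundant than Cul5 already in WT, where the ratio of Cul5 to Rnf7 in TPM was 0.344, 0.362 and 0.360. In Cul5 cKO this ratio was 0.0693, 0.0765 and 0.0717. Rnf7 relative to Rbx1 was 0.544, 0.649 and 0.542 in WT and 0.611, 0.675 and 0.677 in Cul5 cKO, with overlap. Elob exceeded Eloc 2.72- to 3.35-fold in WT and 2.33- to 2.87-fold in Cul5 cKO.

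**Figure D3:**
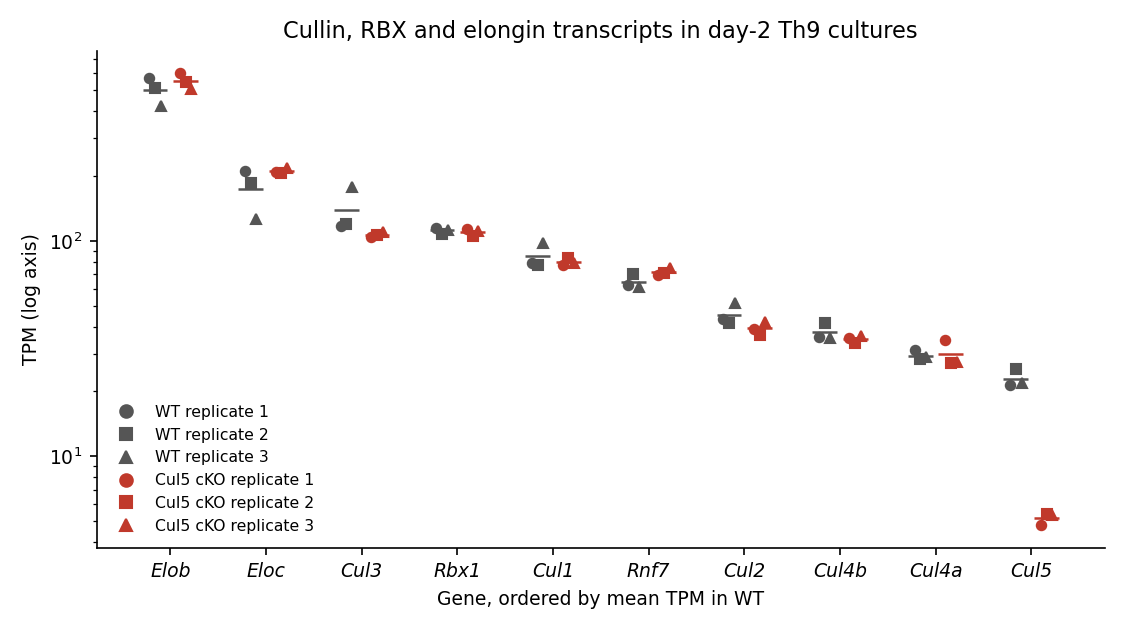
TPM (y axis, log scale) of the 10 genes (x axis, ordered by the mean in WT) in each culture. Points are cultures and lines are group means, and Cul5 shows the widest gap between genotypes, at 21.5 to 25.3 TPM in WT and 4.79 to 5.42 TPM in Cul5 cKO. Cul3 did not overlap either, at 118 to 177 TPM and 104 to 110 TPM.

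As a pool, the cullins other than Cul5 were no higher in Cul5 cKO. Their summed TPM was 307, 309 and 391 in WT and 290, 287 and 295 in Cul5 cKO. The Cul5 cKO cultures were all lower, with a mean difference of -44.9 TPM (exact two-sided permutation test, p = 0.1, the smallest possible here). In CPM, which does not divide by length, the same sum was 546, 545 and 544 in WT and 538, 529 and 562 in Cul5 cKO, and the groups overlapped (exact two-sided permutation test, p = 0.9). Cul5 made up 6.56%, 7.55% and 5.33% of the TPM of the 6 cullins in WT and 1.62%, 1.85% and 1.79% in Cul5 cKO.

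**Figure D4:**
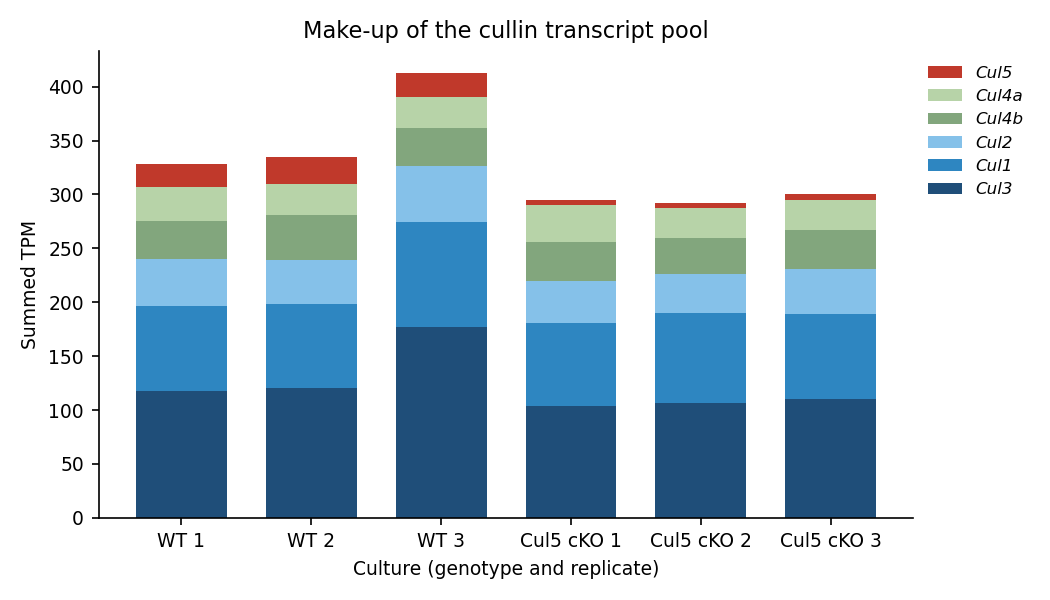
Summed TPM of the 6 cullins (y axis, from 0) in each culture (x axis), stacked by gene. The total was 328, 335 and 413 TPM in WT and 292 to 300 TPM in Cul5 cKO, and most of the excess of WT replicate 3 over the other WT cultures lies in its Cul3 segment (177 TPM against 118 and 120).

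The TPM of Cul3 shows how far that pool depends on a few reads. Cul3 was at 118, 120 and 177 TPM in WT and at 104, 107 and 110 TPM in Cul5 cKO, without overlap, whereas its levels in CPM overlapped. Cul3-204 and Cul3-205, 2 transcripts under 600 bases, held 91.5 estimated counts in WT replicate 3, yet 85.3 of its TPM. In the other 5 cultures they held 12.8 to 27.2 TPM. Over the remaining Cul3 transcripts the level was 90.4, 106 and 92.1 TPM in WT and 86.6, 93.8 and 96.0 TPM in Cul5 cKO, and the genotypes overlapped. Groups did not overlap in TPM for 21.9% of all genes and for 2 members, Cul3 and Cul5.

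Shares of single transcripts also stood apart in members other than Cul5. Of 29 member transcripts with at least 5% of their gene's counts in either genotype, 9 did not overlap between genotypes, or 31.0%, beside 12% over all genes tested. They were 3 of Cul5, 2 each of Cul2 and Cul4b, and 1 each of Cul4a and Rbx1. The 31.0% thus includes the deleted gene and is not a figure for the other members alone. Shares within a gene also depend on each other, so transcripts of the same gene are not separate observations. Cul2-202, annotated as a target of nonsense-mediated decay, held 68.6% ± 5.6 of Cul2 counts in WT and 59.4% ± 1.4 in Cul5 cKO. The coding transcript Cul2-205 held 19.5% ± 4.7 and 29.2% ± 1.3 (SD, n = 3 per group). Cul4a-201 went from 80.3% ± 14.8 to 91.8% ± 0.18 and Cul4b-203 from 74.2% ± 6.4 to 86.7% ± 5.6. For Cul4a-201 the WT shares were 89.6%, 87.9% and, in the shallow replicate 3, 63.2%. Cul4b-204 held 5.61% in WT and 2.39% in Cul5 cKO, and Rbx1-205 held 9.81% and 6.59%. Each of these gave p = 0.1 in the exact two-sided permutation test, the smallest possible. In WT replicate 3 Cul2-205 had only 39.7 counts, Cul4b-204 28.2 and Rbx1-205 28.3. The share of Cul4b-204 was 8.36% there, against 4.41% and 4.07% in WT replicates 1 and 2. For Rbx1-205 it was 14.4%, against 7.76% and 7.32%. The coding transcripts of Cul2 together held 17.4% to 40.6% of its counts, against at least 89.2% for Cul1, Cul3, Cul4b, Cul5, Rbx1, Rnf7 and Eloc.

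In the gene-level table of log2 CPM that the authors deposited, 8 of the 10 members stand under their own symbols, and Elob and Eloc under the older names Tceb2 and Tceb1. Cul5 was again the one member called (limma on these values, log2 fold change -2.11, adjusted p = 0.00196), where 0.374% of all entries were. Cul3 was at 7.65, 7.62 and 8.24 in WT and at 7.45, 7.5 and 7.58 in Cul5 cKO on this log2 scale. These groups did not overlap, as for 23.5% of all entries, and the difference of -0.33 did not pass the test (limma adjusted p = 0.373). Rnf7 did not overlap on this scale either, at 5.52 to 5.65 in WT and 5.68 to 5.83 in Cul5 cKO. Its difference of 0.17 did not pass the test (limma adjusted p = 0.385). Rbx1 was at 4.77, 4.55 and 3.88 in WT and at 4.76, 4.62 and 4.62 in Cul5 cKO, so that WT replicate 3 alone was low.

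Beyond the 10 genes, 79 other genes of the pathway in 7 lists were examined, of which 76 passed the filter and 1 was called. That gene was Pcmtd2, a SOCS-box receptor related to protein isoaspartate methyltransferases. Pcmtd2 was at 38.5, 38.8 and 42.5 CPM in the WT cultures and at 28.5, 27.4 and 24.7 CPM in Cul5 cKO. All Cul5 cKO cultures were lower, with a log2 fold change of -0.56 ± 0.09 (edgeR adjusted p = 0.0375). The call was lost without any single culture other than WT replicate 1, with adjusted p-values up to 0.16. It was also lost in TPM (log2(TPM + 1), limma adjusted p = 0.203) and in the authors' table (limma adjusted p = 0.190), within a range of 4.73e-04 to 0.203 over 17 alternatives.

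The CRL5 receptors as a list held 26 genes, of which 23 were tested, and their median log2 fold change was 0.10. Between genotypes 10 of them, or 43.5%, did not overlap, where 27.5% of all genes did not. An unadjusted p under 0.05 was found for 8 of them, or 34.8%, beside 21.3% of all genes, 4 higher and 4 lower. The list was chosen with earlier results of these data known, so these shares describe it and test nothing about such receptors in general. The 3 not tested were Socs7, Spsb4 and Rab40b, which did not pass the filter on low counts. Chosen after their values were seen, Pcmtd1, the paralog of Pcmtd2, had a log2 fold change of -0.42 ± 0.10 (edgeR adjusted p = 0.0939) and Klhdc1 one of -0.85 ± 0.21 (edgeR adjusted p = 0.109). The cytokine inhibitors Socs1, Socs2 and Socs3, also chosen after their values were seen, had log2 fold changes of 0.23, 0.34 and 0.43, with adjusted p-values of 0.123, 0.162 and 0.162 (edgeR). Some alternatives did call these receptors. DESeq2 called Socs1, Klhdc1 and Pcmtd1, and a block on replicate number called Pcmtd1 and Socs2. Socs2 was also called with replicates 2 and 3 alone and without WT replicate 1, and Socs3 under no alternative. The other members of that family that were tested had log2 fold changes nearer 0, at 0.12 for Cish, 0.10 for Socs6, -0.03 for Socs5 and -0.10 for Socs4, and none was called.

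Of the CRL2 receptors all 11 were tested, 2 with positive and 9 with negative fold changes, and none was called. Zer1, which recognizes certain N-terminal residues, was closest: it was at 66.6, 74.8 and 83.5 CPM in the WT cultures and at 50.4, 53.6 and 47.1 CPM in Cul5 cKO. Every Cul5 cKO culture was lower, and the log2 fold change of -0.56 ± 0.10 narrowly missed the threshold (edgeR adjusted p = 0.0506). Under 8 of 17 alternatives Zer1 passed it, among them DESeq2 (adjusted p = 2.7e-04), and the range over all 17 was up to 0.212.

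Each of the other 5 lists held no called gene, and in each the gene with the smallest p is given. Eloa, the large elongin subunit, had a log2 fold change of 0.33 ± 0.08 (edgeR adjusted p = 0.0935), from 99.98 ± 1.99 CPM in the WT cultures to 126 ± 11 CPM in Cul5 cKO (SD, n = 3). Cdc34, a ubiquitin-conjugating enzyme of the SCF ligases, went from 137 ± 8.6 to 173 ± 5.0 CPM, with adjusted p = 0.0724 by edgeR. Ube2m, the Nedd8-conjugating enzyme paired with Rbx1, went from 170 ± 9.3 to 204 ± 5.5 CPM, with adjusted p = 0.104 by edgeR. Of 17 alternatives 4 called Cdc34 and 2 each called Eloa and Ube2m, among them DESeq2 (adjusted p = 0.0040, 0.0182 and 0.0211). In these genes and in Gps1, a subunit of the COP9 signalosome that removes Nedd8, all Cul5 cKO cultures were above all WT cultures. Such separation is likely in genes picked for the smallest p of their list, and 27.5% of all genes did not overlap in CPM. In the lists of Eloa, Cdc34, Ube2m and Gps1 the shares without overlap were 25%, 33.3%, 10% and 21.4%. Gps1 had a log2 fold change of 0.24 ± 0.06 (edgeR adjusted p = 0.113). Cul9, an atypical cullin that binds p53, was at 11.5 ± 1.9 CPM in the WT cultures and 9.12 ± 1.18 CPM in Cul5 cKO, with overlap.

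**Figure D5:**
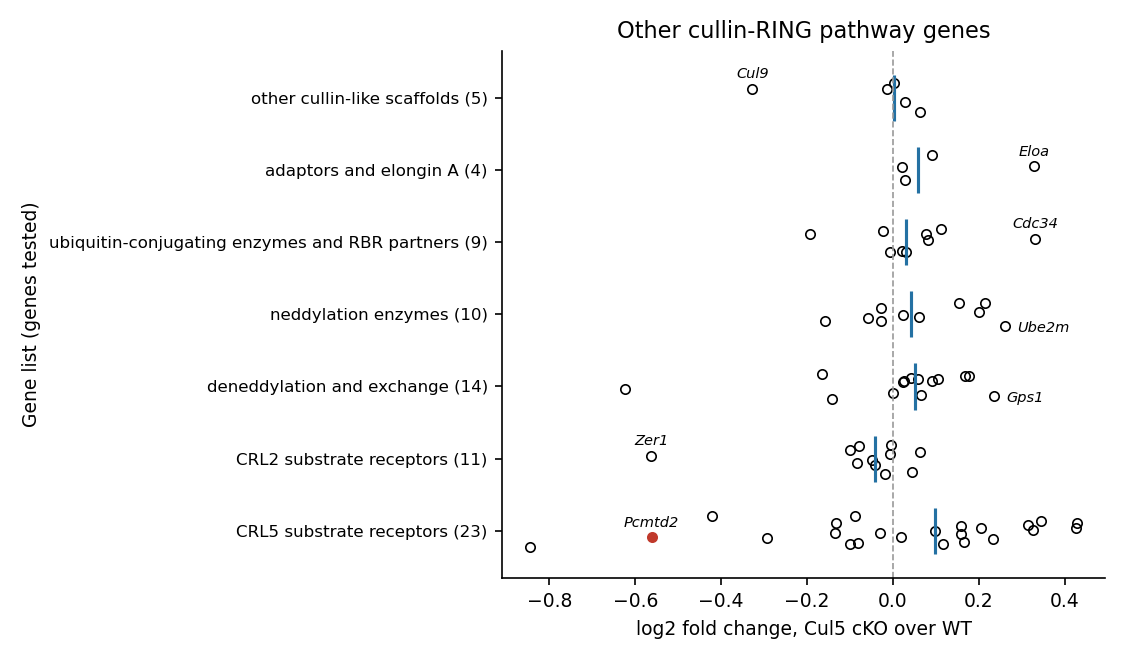
Log2 fold change (x axis, Cul5 cKO over WT) of the 76 tested pathway genes, in rows by list with the number tested in brackets. Each point is a gene, the filled point is the called gene Pcmtd2, and blue bars are list medians, which lie between -0.04 and 0.10.

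By the correlation of log2 CPM over the 6 cultures among 11614 genes averaging 1 CPM or more, the patterns most like that of Cul5 included those of Celsr2, Top2b, Trav10 and Rps7. Pearson's r was 0.989 to 0.991 for these, and since the points share genotype, a gene with a small but steady difference scores as high as one with a large one. Top2b, the beta isoform of topoisomerase II, was at 297 to 307 CPM in the WT cultures and 250 to 255 CPM in Cul5 cKO. Rps7, a ribosomal protein gene, was at 298 to 374 CPM and 125 to 151 CPM. Only Rps7 was called (edgeR adjusted p = 0.0105). Top2b, Celsr2 and Trav10 were not, with edgeR adjusted p-values of 0.0701, 0.0937 and 0.258. None of these 4 genes is a member or stands in a pathway list.

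Several members share sequence with other genes, which bears on their counts. A stretch of 326 bases of Rnf7 matched a transcript of Emb at 96.9% identity. Emb had 1441, 1605 and 254 counts in WT and 952, 1113 and 1239 in Cul5 cKO, or 116% of those of Rnf7 over all cultures, while the transcripts that carry such a stretch held 2.73 to 15.3 counts per culture. Cul4a shared stretches of at least 150 bases and 95% identity with 12 other genes, Maoa among them. With the counts of these genes added, its log2 ratio of mean CPM went from 0.17 to 0.07. No such stretch was found for Cul2, Cul3, Cul4b, Cul5 or Eloc. The exons of Cul1 overlap the pseudogene A930035D04Rik on the opposite strand, which had 0 to 18.4 counts, against 541 to 3139 for Cul1. A gene on the opposite strand that shares 110 exon bases with Cul5 was not analysed here. Since no strand setting is given, reads from genes that overlap in this way cannot be told apart.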

How the data were processed

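Poly-A RNA of 3 WT and 3 Cul5 cKO cultures was sequenced as single-end reads on a BGIseq500. The authors assigned reads to transcripts of GRCm38 with kallisto 0.46.2 and deposited, per library, estimated counts (not normalized) and TPM for 119414 transcripts. They also deposited a table of log2 CPM per gene, normalized by TMM with edgeR 3.34.0; its fold change and p-value columns, the authors' own comparison, were not used, nor was the study's per-gene test.

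Transcripts were summed to genes with GENCODE vM21, which matched 97.7% of them; unmatched ones held 0.958% to 1.04% of counts. Gene sums were rounded and tested in R 4.3.3 with edgeR 4.0.16 (expression filter, TMM, quasi-likelihood test, Benjamini-Hochberg adjustment over 12925 genes), and a gene was called at an adjusted p under 0.05. Standard errors and 95% intervals come from this model and cover the spread between cultures. The depth of WT replicate 3 limits its precision. Sums and shares were compared by exact two-sided permutation tests with SciPy 1.17.1. Alternatives used limma 3.58.1 and DESeq2 1.42.0, and blastn 2.17.0 found shared sequence.

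The members and lists were chosen with earlier results of these data known. Named were all members, each list's called genes or else its gene of smallest p, and the 5 genes most like Cul5, 1 of which is not reported here; genes named outside this rule are marked where they stand. No per-sample column was left unmapped (0 columns).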

Additional observations from a re-analysis of the deposited data

How the results depend on the processing

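Cul5 was the 1 member called under all 17 alternatives, with a log2 fold change between -2.48 and -1.95 and an adjusted p of at most 0.0248. For the other 9 members, 0 of 153 values passed the threshold (lowest adjusted p 0.0753) and 140 kept their sign. Of the 13 that did not, Cul1 was at -0.028 with library size alone, -0.027 with counts scaled from TPM, -0.0756 and -0.0764 with limma on log2 TPM with 1 and 0.1 added, -0.0564 in the authors' table and -0.0065 without Cul5 cKO replicate 3. Leaving out single cultures gave Cul1 -0.0065 to 0.0438. Cul2 was at -0.154 with counts scaled from TPM, -0.204 and -0.209 on the same TPM scales and -0.0907 in the authors' table. Rbx1 was at -0.0290 and -0.0292 on them and at -0.130 in libraries thinned to the shallowest. So the signs of Cul1, Cul2 and Rbx1 depended on the processing; beyond the change of unit or library that defines each alternative, the cause was not tested.

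Calls among the other pathway genes, 1 in the report, were 8 with DESeq2, 2 with library size alone, with at least 10 counts in every sample, with no filter beyond 1 count and with thinned libraries, 0 with counts scaled from TPM, with limma on both TPM scales and in the authors' table, 7 with replicates 2 and 3 alone and 14 at an unadjusted p under 0.05. Leaving out single cultures gave 0 to 4. Calls over all genes, 133 in the report, were 753 with DESeq2, 228 with no filter beyond 1 count, 62 with counts scaled from TPM, 27 and 30 on the TPM scales, 42 in the authors' table, 1153 with replicates 2 and 3 alone, 2753 at an unadjusted p under 0.05, and 2 to 316 without single cultures.

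The replicate block, using the numbers of the titles, gave 5 calls among pathway genes and 848 over all genes, and called no member besides Cul5. Deviations of same-numbered cultures correlated at 0.370, 0.206 and 0.0245. WT replicate 1 correlated best with its own number, and WT replicate 2 nearly as well with Cul5 cKO replicate 3 (0.201). WT replicate 3, the shallow library, correlated better with Cul5 cKO replicate 2 (0.0914). The labels state no pairing, so the fit in the report used no block. Whether same-numbered cultures shared a batch cannot be told from these values.

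The log2 difference in the summed level of the other 5 cullins, -0.20 in TPM, was -0.00649 in CPM. The difference in the Cul5 share, -4.73 percentage points in TPM, was -8.56 in CPM and -6.92 in the authors' values made linear. Leaving out single cultures gave -0.26 to -0.08 for the sum, the latter without WT replicate 3, and -5.30 to -4.19 points for the share. At 3944803 counts WT replicate 3 bounds what the WT group can show.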
